A study of Mus musculus with 4 samples.

Results

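The RASSF genes encode the Ras association domain family, named for a domain that binds RAS-like GTPases. All 10 members, Rassf1 to Rassf10, were followed in the accessible chromatin of mouse hair follicle stem cells (HFSC), the bulge cells that start each new hair cycle. They are 10 of the 21887 protein-coding genes on the standard chromosomes and all 10 were found by symbol. The region of a member was its gene body plus 50 kb on each side, and the regions of the members held 248 of the 484992 Irx5KO peaks and 221 of the 498061 WT peaks. The members were chosen by their family name with earlier results of these lists known, and the counts that mark the family out, peaks listed in 1 genotype only within these regions, are the same values that follow. They are therefore given as a description, with no test.

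The groups were Irx5KO and WT, with 2 samples each. The Irx5 product is a DNA-binding homeodomain protein, one of the Iroquois factors. The labels give neither the knockout allele, its breadth over cell types, nor the animals' age, sex or strain. The sort took CD34+ cells that also carried a marker spelled CD45f in the labels and that lacked Ly-6A/E. ATAC-seq marks open DNA by cuts of the transposase Tn5. The deposited data were 1 peak list per genotype that pools both replicates, so no spread between replicates and no test between genotypes exist, and a difference between libraries cannot be told apart from one between genotypes. Intervals below are 95% Wilson intervals and cover counting error only. The labels state the same sequencing depth for every sample, and the lists themselves give none.

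A peak counted as shared when at least 1 bp of it lay under a peak of the other list, and as genotype-only when none did. Inside Irx5 itself lay 4 Irx5KO and 2 WT peaks, and both lists had a peak at its ends. All 10 genes listed as HFSC markers, among them Krt15, Cd34, Sox9 and Lhx2, had a peak within 1000 bp of a gene end in both lists. Of all coding genes, 75.2% were so marked in both lists, 6.07% in Irx5KO only and 3.99% in WT only. Of 5 interfollicular and upper-follicle markers, Krt1, Krt10 and Krt79 were marked in this way in Irx5KO only and 2 in both lists. Of 4 fibroblast markers Pdgfra was so marked in Irx5KO only and 3 in both. Of 4 immune markers Ptprc and Cd74 were marked in WT only, Cd68 in both and Cd3e in neither. Of 4 melanocyte markers Mlana and Tyr were marked in WT only and 2 in both, and of 3 endothelial markers Cdh5 in WT only, Kdr in both and Pecam1 in neither. The part of these other cells in the results below was not tested.

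RASSF proteins carry no enzyme activity and act as scaffolds. Rassf1 to Rassf6 pair the Ras association domain with a C-terminal SARAH domain, through which they bind the Hippo kinases Stk3 and Stk4 and take part in growth arrest and cell death. Rassf7 to Rassf10 carry the Ras association domain at the N-terminus and lack the SARAH domain. In human tumours several members, RASSF1A foremost, are silenced by methylation of CpG-rich promoters, while Rassf9 is known from knockout mice as a gene of epidermal homeostasis.

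The RefSeq promoter table of GRCm38.p6, the assembly that mm10 names, held 7 start sites of 6 members, with 2 for Rassf1 and 1 each for Rassf2, Rassf4, Rassf5, Rassf6 and Rassf7. Rassf3, Rassf8, Rassf9 and Rassf10 had no entry. The 250 bases before 5 of these start sites are shown, each for a stated reason. The Rassf5 site lies inside the gene and was met by an Irx5KO peak only, the 2 Rassf1 sites were met by both lists and had the highest CpG ratios, the Rassf7 site carried the highest-ranked of these promoter peaks, and the Rassf2 site held the single TEAD motif. Capitals mark every match, on either strand, to the GC box GGGCGG, the TEAD motif GGAATG, the AP-1 motif TGANTCA and the Iroquois motif ACANNTGT. The places are chr1:131200186-131200435, minus strand, for Rassf5. They are chr9:107551305-107551554 and chr9:107554333-107554582, plus strand, for Rassf1. They are chr7:141215610-141215859, plus strand, for Rassf7 and chr2:132030325-132030574, minus strand, for Rassf2.
Rassf5 internal start: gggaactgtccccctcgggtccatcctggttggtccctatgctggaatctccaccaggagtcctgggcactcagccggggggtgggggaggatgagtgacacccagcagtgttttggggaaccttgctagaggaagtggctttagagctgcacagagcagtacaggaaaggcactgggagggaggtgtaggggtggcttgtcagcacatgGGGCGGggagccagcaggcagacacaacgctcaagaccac
Rassf1 first start: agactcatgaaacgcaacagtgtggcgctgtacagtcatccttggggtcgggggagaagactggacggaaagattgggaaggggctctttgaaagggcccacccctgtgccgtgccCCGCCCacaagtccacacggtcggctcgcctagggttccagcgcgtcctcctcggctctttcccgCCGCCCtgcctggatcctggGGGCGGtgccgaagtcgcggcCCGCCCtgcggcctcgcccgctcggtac
Rassf1 internal start: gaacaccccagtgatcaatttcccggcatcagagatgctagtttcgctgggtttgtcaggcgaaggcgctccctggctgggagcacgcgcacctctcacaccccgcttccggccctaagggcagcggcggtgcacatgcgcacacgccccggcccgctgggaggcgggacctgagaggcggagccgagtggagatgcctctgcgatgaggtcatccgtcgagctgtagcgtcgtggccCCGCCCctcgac
Rassf7 start: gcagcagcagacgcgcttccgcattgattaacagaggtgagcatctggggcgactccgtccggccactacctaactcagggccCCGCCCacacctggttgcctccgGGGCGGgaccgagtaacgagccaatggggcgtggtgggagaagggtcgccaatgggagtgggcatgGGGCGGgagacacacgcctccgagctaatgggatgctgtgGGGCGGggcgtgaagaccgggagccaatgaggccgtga
Rassf2 start: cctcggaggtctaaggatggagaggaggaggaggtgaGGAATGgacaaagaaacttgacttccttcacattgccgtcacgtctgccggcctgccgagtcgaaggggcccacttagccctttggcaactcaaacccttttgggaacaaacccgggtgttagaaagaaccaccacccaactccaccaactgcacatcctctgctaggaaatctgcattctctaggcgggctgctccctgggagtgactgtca

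The GC box was found before 5 of the 7 start sites, against 42.6% of 21263 start sites of coding genes. The first Rassf1 start and the Rassf7 start held 4 each. The TEAD motif was found before 1 of the 7, against 11.7% of coding start sites. Neither the AP-1 nor the Iroquois motif was found in any of these windows, against 6.13% and 5.26%, and no matches of different motifs overlapped. The observed over expected CpG ratio was highest at the Rassf1 starts, 0.815 at the first and 0.85 at the internal one, and lowest at the internal Rassf5 start, 0.179. Rassf7 had 0.758, Rassf4 0.714, Rassf6 0.422 and Rassf2 0.42, where the median of all coding start sites was 0.53. A motif match or its lack describes these letters only.

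Peaks met most of these starts in both lists. Around each start a window of 300 bases was read, 250 before and 50 after it. Both lists had a peak over 6 of the 7 windows, against 59.6% of 21263 windows of coding genes, and the internal Rassf5 start had an Irx5KO peak only, against 6.68%. None of the 7 was met by a WT peak only, against 3.37%. Summits are given in bp from the start, with negative values before it. At the first Rassf1 start the summit lay at 1 in Irx5KO and at 6 in WT. The internal Rassf1 start had its summit at -57 in Irx5KO and at 43 in WT. Both Rassf1 starts thus lay close under the highest point of a peak in each list. At Rassf7 the summit lay at -44 in Irx5KO and at -114 in WT. At Rassf2 it lay inside the gene, at 328 in Irx5KO and at 268 in WT. Rassf4 had it at -10 in Irx5KO and at 490 in WT, and Rassf6 at -209 in Irx5KO and at 11 in WT, so these were the starts where the lists placed the summit furthest apart.

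The internal Rassf5 start was the 1 start of these 7 that a single list marked. Rassf5 is known to give a long product, NORE1A, and a short one, RAPL, which links RAP1 to integrin adhesion in white blood cells; the table does not say which product this start belongs to. The Irx5KO peak there spanned 131200061 to 131200350 on chromosome 1 and was 290 bp wide, covering 215 of the 300 bases. No WT peak met the window. The peak ranked low, at the 10.8th percentile of the Irx5KO list by score, where 100 is the highest. The score is the authors' own value per peak and was used here only to rank peaks within a list.

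Genotype-only peaks were more often Irx5KO peaks. The 10 regions held 77 Irx5KO-only and 41 WT-only peaks, so that 65.3% (56.3 to 73.2) of the genotype-only peaks were listed in Irx5KO. Over the regions of all coding genes, with each peak counted once, this share was 47.1% (46.9 to 47.4), and over the whole lists 44.4% (44.2 to 44.6). Of the Irx5KO peaks in the Rassf regions, 69.0% (62.9 to 74.4) were shared, against 78.2% of the whole Irx5KO list. Of the WT peaks there, 81.4% (75.8 to 86.0) were shared, against 73.4% of the whole WT list. All 10 members had more Irx5KO-only than WT-only peaks, a property of 46.6% of coding genes, and none had more WT-only peaks, a property of 41.3%. Because the family was proposed for these counts, nothing is read from that distance. Among peaks in the upper 50% of their list by score, 4 members had more Irx5KO-only peaks, against 21.6% of coding genes, 4 had equal numbers and 2 had more WT-only peaks. Irx5KO peaks of any kind outnumbered WT peaks at 8 members, against 49.5% of coding genes. Rassf3 had 27 in each list and Rassf8 had 27 in Irx5KO and 31 in WT.

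**Figure D1:**
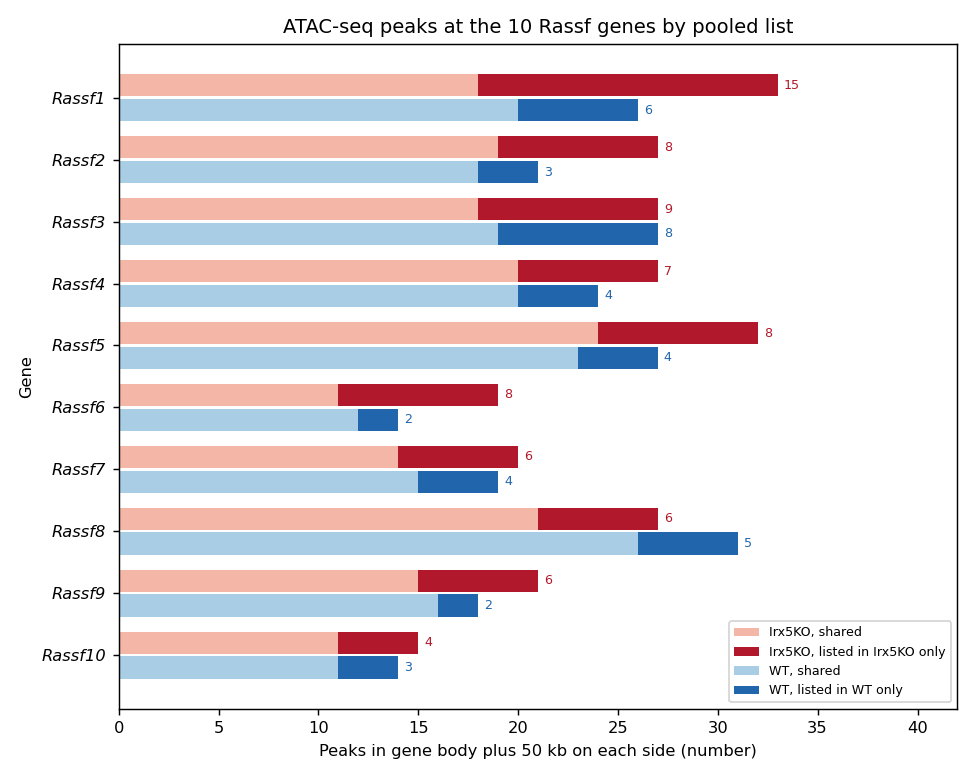
Number of peaks in each member's gene body plus 50 kb on each side, with an upper bar for the Irx5KO list and a lower bar for the WT list; pale parts are shared peaks and dark parts, with their number, are peaks listed in 1 genotype only. Every member has a longer dark part in Irx5KO, from 15 against 6 at Rassf1 to 4 against 3 at Rassf10.

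The margin differed widely among members. Rassf1 had 15 Irx5KO-only and 6 WT-only peaks, Rassf6 had 8 and 2, and Rassf2 had 8 and 3. Rassf5 had 8 and 4, Rassf9 had 6 and 2, Rassf4 had 7 and 4, and Rassf7 had 6 and 4. The margins of Rassf1 and Rassf6 rested on peaks of low rank: in the upper 50% by score each had 0 Irx5KO-only peaks and 1 WT-only peak. At Rassf3 with 9 and 8, Rassf8 with 6 and 5 and Rassf10 with 4 and 3, the lists differed by a single peak. The median difference was 3.5 peaks over the members and 0 over all coding genes. A difference of 3 or more was found at 6 members, against 28.1% of coding genes. A difference as large as that of Rassf1 was found at 3.02% of coding genes and one as large as that of Rassf6 at 10.1%, while 46.6% reached the single peak of Rassf3, Rassf8 and Rassf10.

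**Figure D2:**
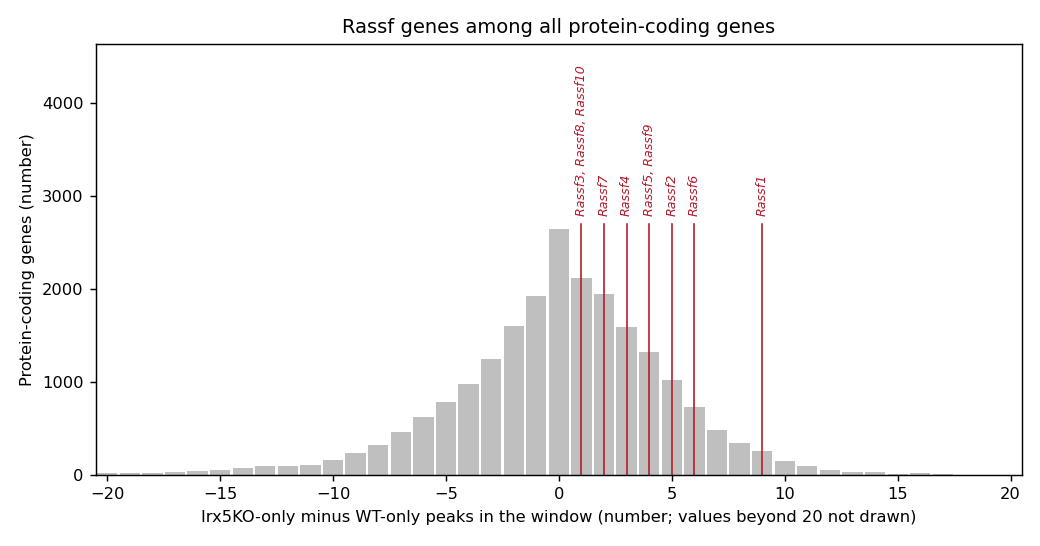
Distribution of the number of Irx5KO-only minus WT-only peaks per region over 21887 protein-coding genes (grey bars, number of genes), with lines at the values of the Rassf members; values beyond 20 in either direction are not drawn. All members lie above 0, and 5 of them lie between 1 and 3, near the middle of the distribution.

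Over all coding genes, this difference went with gene density. The Rassf1 region holds parts of 13 other coding genes, more than any other member region, while the median over all coding genes is 3. Regions of coding genes with 10 or more neighbours had more Irx5KO-only peaks in 66.2% of cases, those with 5 to 9 in 60.3%, those with 2 to 4 in 46.7% and those with 0 or 1 in 35.4%. Rassf1 is the 1 member in the first class and Rassf7, with 7 neighbours, the 1 in the second. The other members, 4 with 2 to 4 neighbours and 4 with 1, lie in the classes of lower share. The part of gene density in the family's counts was not tested.

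Per length, Irx5KO-only peaks were denser in the gene bodies than in the flanks. The bodies of the 10 genes, 380.3 kb in all, held 29 Irx5KO-only and 11 WT-only peaks, or 7.63 and 2.89 per 100 kb. The flanks held 48 and 30, or 4.8 and 3.0 per 100 kb. Over all coding genes the bodies held 4.12 Irx5KO-only and 4.4 WT-only peaks per 100 kb and the flanks 4.54 and 4.59. The values over all coding genes are sums over genes, so a peak in several regions counts repeatedly, whereas the member regions do not overlap. Inside the bodies, Rassf5 and Rassf6 had the most Irx5KO-only peaks, 5 each, against 1 WT-only peak in Rassf5 and 2 in Rassf6. Rassf3 had 4 of each kind in its body, and Rassf10 had none in Irx5KO and 1 in WT.

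**Figure D3:**
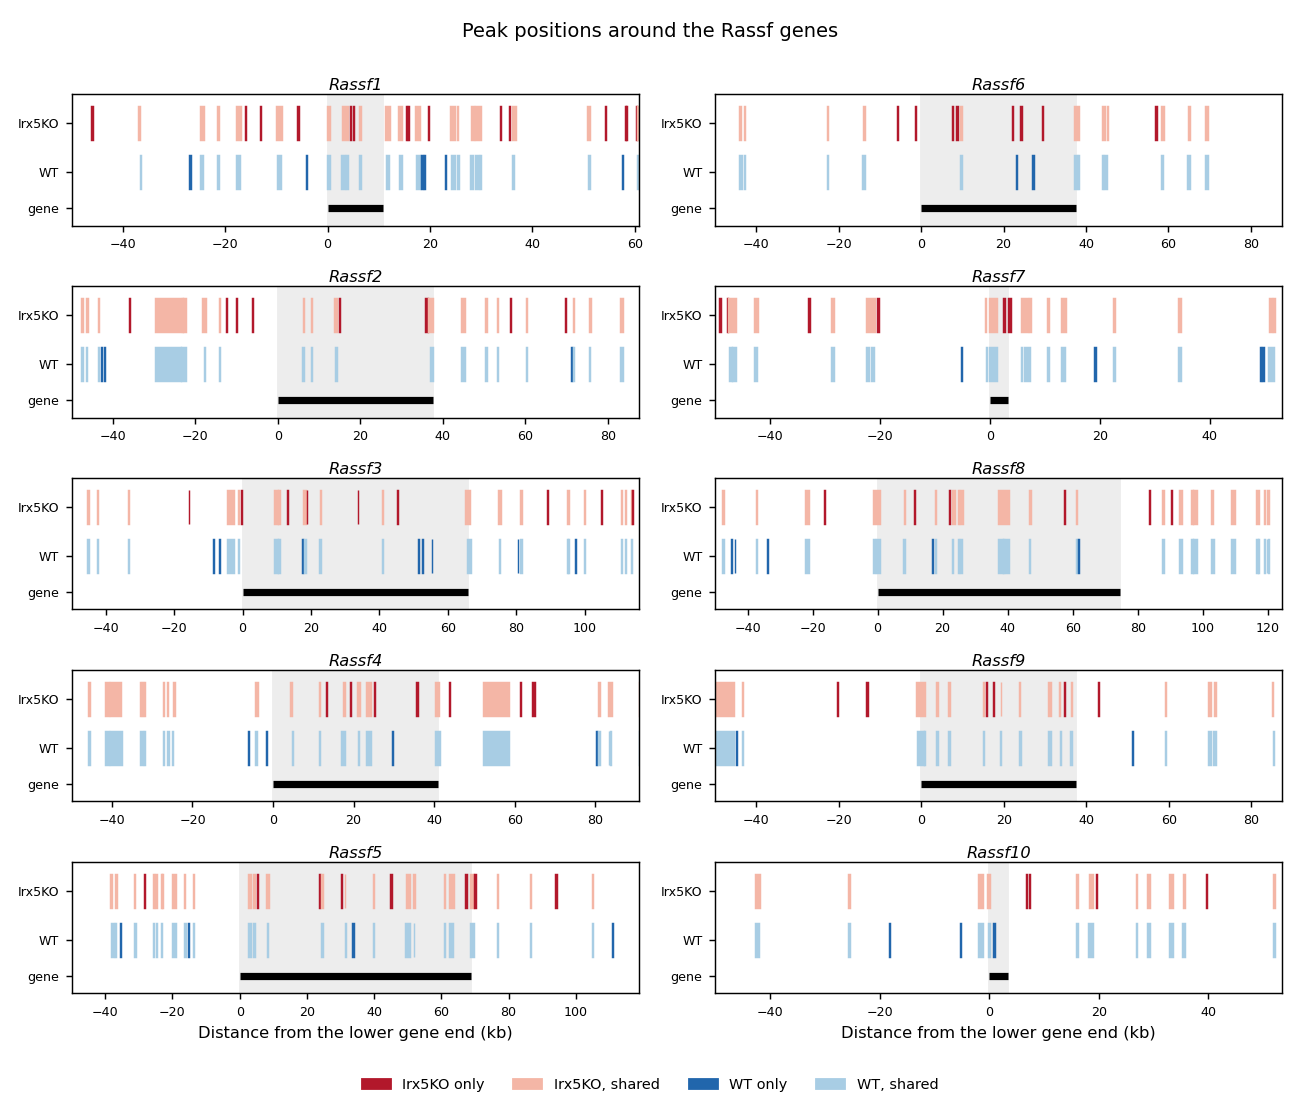
Positions of all Irx5KO peaks (upper row of each panel) and WT peaks (middle row) from 50 kb below to 50 kb above each member, as distance in kb from the lower gene end, drawn to scale with a thin outline; the black line and grey area are the gene body, and dark marks are peaks listed in 1 genotype only. Most marks stand in both rows at the same place, and dark marks are scattered among them in the bodies and flanks.

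The members were marked at their ends in both genotypes. A gene end is taken here as the annotated end together with the 1000 bp to either side. A gene counted as marked by both lists when each list had a peak at either end, even if not at the same end. All 10 members were marked at a gene end by both lists, against 75.2% of coding genes. None was marked by Irx5KO peaks alone, against 6.07%, or by WT peaks alone, against 3.99%. Among peaks in the upper 50% by score, 4 members were so marked by both lists, against 40.1% of coding genes. Taken singly, 11 of the 20 ends had a peak in both lists, 3 had one in Irx5KO only, none in WT only and 6 in neither, where 48.1%, 6.52% and 5.14% of all coding gene ends had one in both, in Irx5KO only and in WT only. The 3 ends were the lower end of Rassf3 and the upper ends of Rassf7 and Rassf9. At the 11 ends marked in both, Irx5KO peaks covered more of the window at 8 and WT peaks more at 3, which were the lower ends of Rassf1 and Rassf9 and the upper end of Rassf4. Over all coding gene ends marked in both, Irx5KO covered more at 58.2%.

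Rassf1 encodes the tumour suppressor of the family that stabilises microtubules and activates the Hippo kinases (chromosome 9, 107551434 to 107562267). Its first start lay in a peak of 600 bp in Irx5KO and of 660 bp in WT, at the 41.8th and 35.7th percentiles of their lists. The upper end had a shared peak of 820 bp in Irx5KO and 450 bp in WT, on the side of Tusc2, at the 41.8th and 41.9th percentiles. The lower end is also a gene end of Zmynd10, so the peak there belongs to both genes by position. The internal start lay in a wider peak, of 1250 bp in Irx5KO and 870 bp in WT. That Irx5KO peak also overlapped a second WT peak, of 480 bp. In the body 2 further peaks were listed in Irx5KO only and none in WT only. Of the 15 Irx5KO-only peaks 13 lay in the flanks, and 7 of the 15 lay within 1000 bp of an end of a neighbour, namely Tmem115, Cyb561d2, Nprl2, Tusc2, Hyal2, Hyal3, Ifrd2 or Sema3b. The highest-ranked Irx5KO-only peak, at the 36.3rd percentile, was the one beside Hyal3 and Ifrd2. The highest-ranked WT-only peak, at the 60.6th percentile, lay 1.62 kb from Hyal2, a hyaluronidase gene. The highest-ranked peak of the region was shared and lay beside Cacna2d2, at the 98.8th percentile in Irx5KO and the 99.5th in WT.

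Rassf2 encodes a nuclear partner of the Hippo kinases (chromosome 2, 131992850 to 132030416). The peak over its upper end, where the gene starts, was 1310 bp wide in Irx5KO and 640 bp in WT, and its rank was the 34.2nd percentile in each list. In Irx5KO a further peak of 590 bp, listed there only, lay next to it inside the gene. The flank on the side of Prn and Prnd held a shared peak of 6260 bp in Irx5KO and 6280 bp in WT. All 3 WT-only peaks of the region lay outside Rassf2, near Prnd and in Slc23a2, whereas 2 of the 8 Irx5KO-only peaks lay in the gene. The highest-ranked of these 8 stood at the 61.9th percentile inside Slc23a2, and the WT-only peaks reached the 13th.

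Rassf3, whose product restrains MDM2 and so favours p53 (chromosome 10, 121410350 to 121476250), was marked at its upper end by a peak of 1480 bp in Irx5KO and 1160 bp in WT, at the 87th and 78.1st percentiles. Its lower end had a peak of 360 bp in Irx5KO only, at the 21st percentile, from 121409841 to 121410200. The highest-ranked genotype-only peaks were at the 64th percentile in Irx5KO, in the flank, and at the 62.9th in WT, inside the gene. The shared peaks below the lower end included one of 1890 bp in Irx5KO and 1900 bp in WT.

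Rassf4 (chromosome 6, 116633008 to 116673836), a SARAH-domain member, had its start in a peak of 1020 bp in Irx5KO and 1280 bp in WT, at the 41.5th and 33.3rd percentiles. The highest-ranked peak of the region, shared and inside the gene, reached the 97.7th percentile in Irx5KO and the 96.5th in WT. Its 7 Irx5KO-only peaks were low, with a median at the 4.02nd percentile, and so were its 4 WT-only peaks, at the 6.26th. A shared peak of 6430 bp in Irx5KO and 6420 bp in WT lay over an end of the neighbour Tmem72.

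Rassf5, the gene of NORE1A and RAPL (chromosome 1, 131176410 to 131245178), was marked at its upper end by a shared peak of 1160 bp in Irx5KO and 1100 bp in WT, at the 49.7th and 45th percentiles. Next to it lay an Irx5KO-only peak of 640 bp at the 44.5th percentile, the highest-ranked Irx5KO-only peak of the region. With the peak at the internal start described above, 5 Irx5KO-only peaks lay in the body and 1 WT-only peak. The highest-ranked peak of the region lay in the gene, was shared and stood at the 97.8th percentile in Irx5KO and the 98.8th in WT.

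Rassf6, a gene tied to cell death (chromosome 5, 90603076 to 90640734), had at its start 1 peak of 1370 bp in Irx5KO and 2 peaks of 880 and 300 bp in WT. Their ranks were the 55th percentile in Irx5KO and the 35.4th and 16.5th in WT. Its region held the highest-ranked genotype-only peak of the whole family, a WT-only peak of 470 bp inside the gene (90629881 to 90630350) at the 75th percentile. The 5 Irx5KO-only peaks inside the gene ranked up to the 48.6th percentile.

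Rassf7, known from human cells for its role at mitosis, is a small gene (chromosome 7, 141215425 to 141218658). Its start lay in a peak of 1510 bp in Irx5KO and 1390 bp in WT, at the 83rd and 70.1st percentiles, and this peak also lies at an end of Lmntd2. Beside it lay a small shared peak of 290 bp in Irx5KO and 200 bp in WT. Its upper end was marked in Irx5KO only, by peaks of 330 bp and 510 bp at the 9.92nd and 16.9th percentiles. Hras, which encodes a RAS protein, lies in the same region. An Irx5KO-only peak of 350 bp lay within 1000 bp of ends of Hras and Lrrc56. The highest-ranked genotype-only peaks stood at the 39.1st percentile in Irx5KO and, inside Phrf1, at the 33.9th in WT.

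Rassf8, which binds ASPP proteins at cell junctions (chromosome 6, 145746561 to 145821079), had at its lower end 1 peak of 2010 bp in Irx5KO and 2 of 730 and 1180 bp in WT. The Irx5KO peak stood at the 84.6th percentile and the WT peaks at the 30.8th and 72.8th. Inside the gene lay a shared peak of 3280 bp in Irx5KO, at the 97.5th percentile, where WT had peaks of 1460, 350 and 1300 bp. The highest-ranked peak of the region was shared and lay above the gene, at the 98.5th percentile in Irx5KO and the 95.9th in WT. The highest-ranked genotype-only peaks stood at the 60.6th percentile in Irx5KO, inside the gene, and at the 45.2nd in WT, outside it. It was the 1 member with more WT than Irx5KO peaks in all, with 27 in Irx5KO and 31 in WT.

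Rassf9 (chromosome 10, 102512222 to 102549737) had the highest-ranked gene-end peak of the family, of 2010 bp in Irx5KO and 1590 bp in WT at its lower end, at the 93.2nd and 84.4th percentiles. WT had a second peak of 280 bp beside it that the Irx5KO peak also reached. Near the upper end an Irx5KO peak of 350 bp reached 44 bp into the window. It overlapped a WT peak that ended outside the window, so this end counts as marked in Irx5KO only although the peak itself is shared. In the body 3 peaks were listed in Irx5KO only and none in WT only. The highest-ranked genotype-only peaks, at the 61.7th percentile in Irx5KO and the 55.9th in WT, lay above the gene.

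Rassf10 (chromosome 7, 112953962 to 112957458), also small, was marked at its lower end by a peak of 540 bp in Irx5KO and 230 bp in WT, at the 42.2nd and 14.3rd percentiles. A second WT peak of 270 bp inside the gene was listed in WT only. Its region reaches Tead1, which encodes a Hippo transcription factor. The 4 Irx5KO-only peaks all lay above the gene and 2 of the 3 WT-only peaks below it. Their highest ranks were the 52.3rd percentile in Irx5KO and the 32.6th in WT. The highest-ranked peak of the region was shared, of 720 bp in Irx5KO and 710 bp in WT.

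**Figure D4:**
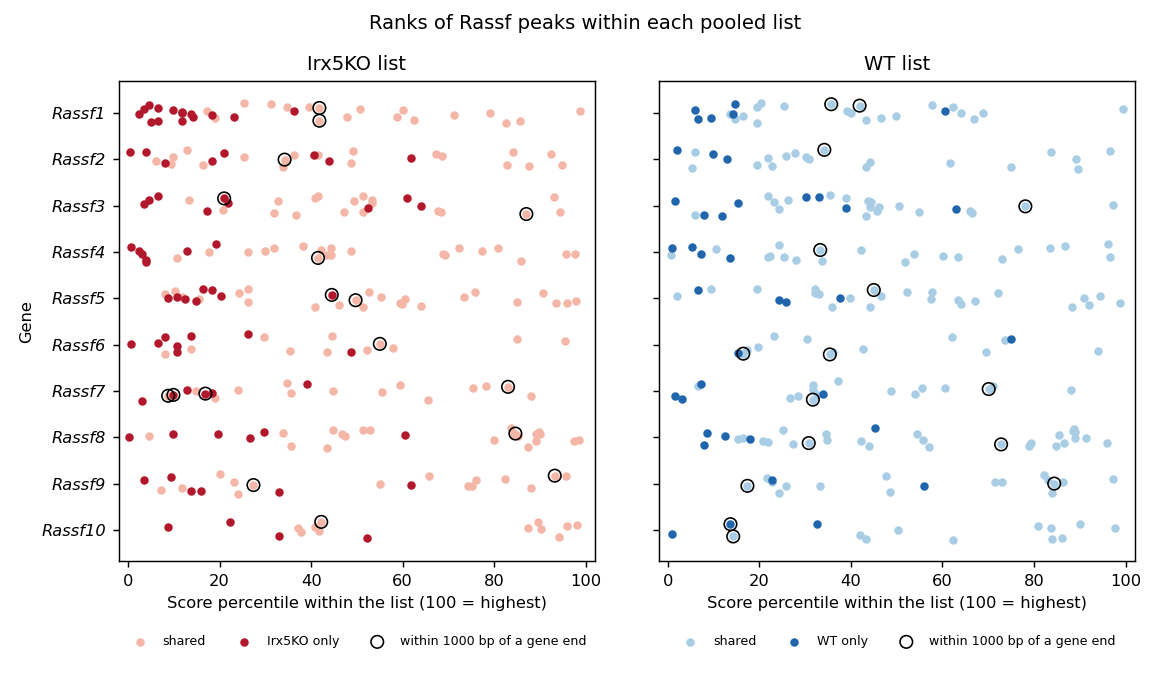
Score percentile of every peak in the member regions within its own list (100 is the highest), in Irx5KO (left) and WT (right); dark points are peaks listed in 1 genotype only, and rings mark peaks within 1000 bp of an end of the member. Genotype-only peaks gather at the low end, with medians at the 13.7th percentile in both lists, and Rassf9, Rassf3, Rassf8 and Rassf7 carry the highest-ranked gene-end peaks.

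The genotype-only peaks of the family were narrow and low. Irx5KO-only peaks had a median width of 270 bp and WT-only peaks one of 240 bp, against 250 bp for such peaks in each whole list. Their median rank was the 13.7th percentile in each list, against the 15.5th for Irx5KO-only and the 18th for WT-only peaks of the whole lists. Among peaks above the middle of their own list by rank stood 7 of the 77 Irx5KO-only and 4 of the 41 WT-only peaks. The share of all genotype-only peaks above the middle is not given, so these counts are not read as particular to the family. Shared peaks of the family ranked at a median of the 51.3rd percentile in Irx5KO and the 44.7th in WT, against the 60.2nd and 62.6th for all shared peaks. The highest decile held 20 of the 248 Irx5KO peaks and 15 of the 221 WT peaks, all of them shared. The shared part of the highest decile of each whole list is not given, so this is not read as particular to the family.

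Shared peaks of the family were wider in Irx5KO somewhat more often than in WT. Each of the 171 shared Irx5KO peaks was set beside the WT peak it overlapped most. This pairing runs 1 way. An Irx5KO peak over several WT peaks was set beside only 1 of them, and a WT peak over several Irx5KO peaks could enter repeatedly. The Irx5KO peak was the wider at 93 of these, or 54.4%, and the WT peak at 68, whereas over all 379082 shared Irx5KO peaks the Irx5KO peak was the wider in 37.5%. The median ratio of Irx5KO to WT width was 1.03 in the family and 0.98 in the whole list. An Irx5KO peak overlapped more than 1 WT peak at 14 of the 171, or 8.19%, against 6.37% of the whole list, and gene-end peaks of Rassf6, Rassf8 and Rassf9 were among these. Summits lay a median of 55 bp apart in the family and 40 bp in the whole list.

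Some calls rest on small overlaps or gaps. The smallest overlap among shared Irx5KO peaks of the family was 20 bp and among shared WT peaks 30 bp. Of the 171 and the 180, 18 and 10 were covered by less than 50%, and the whole-list share is not given beside them. The smallest gap to the other list was 50 bp for Irx5KO-only and 80 bp for WT-only peaks.

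The intervals of the C-terminal and N-terminal groups overlapped. Rassf1 to Rassf6, which carry the SARAH domain, held 55 Irx5KO-only peaks, or 67.1% (56.3 to 76.3), beside 27 in WT only. In Rassf7 to Rassf10 there were 22 in Irx5KO only, or 61.1% (44.9 to 75.2), beside 14 in WT only. The median difference was 4.5 peaks over the first 6 genes and 1.5 over the other 4.

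In the 4 lists of genes that work with the family, between 54.7% and 58.7% of genotype-only peaks were Irx5KO peaks. The gene counts below stand beside all coding genes, of which 46.6% had more Irx5KO-only and 41.3% more WT-only peaks. The 9 Hippo kinases and scaffolds held 59 Irx5KO-only and 45 WT-only peaks, or 56.7% (47.1 to 65.8), with more Irx5KO-only peaks at 6 and more WT-only at 2. Stk4, a direct SARAH partner, had 12 and 6, and Stk3, the other, had 14 and 13. The widest margins in each direction were 12 and 5 at Wwc1, the gene of the Hippo scaffold KIBRA, and 2 and 6 at the kinase cofactor gene Mob1a. The 9 effectors and targets held 84 and 59, or 58.7% (50.5 to 66.5), with 6 and 2 genes in each direction. All 3 WT-only peaks of the Rassf10 region, and none of its Irx5KO-only peaks, also lie in the region of Tead1 and are counted in this list. Tead3 had 8 and 1 and Vgll4, a TEAD cofactor gene, 15 and 8, while Tead2 had 1 and 4. The coactivator genes Yap1 and Wwtr1 had 11 and 8, and 11 and 9.

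The 8 RAS-like GTPase genes held 47 Irx5KO-only and 39 WT-only peaks, or 54.7% (44.2 to 64.7), with 6 and 2 genes in each direction. Rras had 10 and 3 and Mras had 4 and 14, the largest margins of this list in each direction. Hras had 9 and 3, of which 6 and 2 also lie in the Rassf7 region. The 9 other partners held 58 and 44, or 56.9% (47.2 to 66.1), with 7 and 2 genes. Moap1, the gene of a BAX activator bound by Rassf1, had 6 and 1, and Xpa, a gene of nucleotide excision repair, had 5 and 7. Bax, the gene of a death effector of mitochondria, was marked at a gene end by Irx5KO peaks alone, and every other gene of the 4 partner lists by both lists. Over all coding genes, 6.07% were marked by Irx5KO peaks alone and 75.2% by both lists. The intervals of all 4 partner lists overlap that of the Rassf family. With each peak counted once, the interval of all coding genes was 46.9 to 47.4. It also overlaps those of the partner lists, except that of the effectors and targets, which starts at 50.5. The regions of the 10 HFSC markers held 96 Irx5KO-only and 40 WT-only peaks, or 70.6% (62.4 to 77.6). More Irx5KO-only peaks were found at 9 of 10, against 46.6% of coding genes. Tcf7l1 alone held 27 and 8 of these peaks. The counts of each partner and marker list are sums over its genes, so a peak in the regions of 2 genes counts 2 times. The 4 melanocyte markers stood at 68.6% (55.0 to 79.7) and the 4 fibroblast markers at 41.4% (29.6 to 54.2), with interfollicular, immune and endothelial markers between. The share of the Rassf family was thus below those of the HFSC and melanocyte markers. Whether any of these lists differs from the family was not tested.

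**Figure D5:**
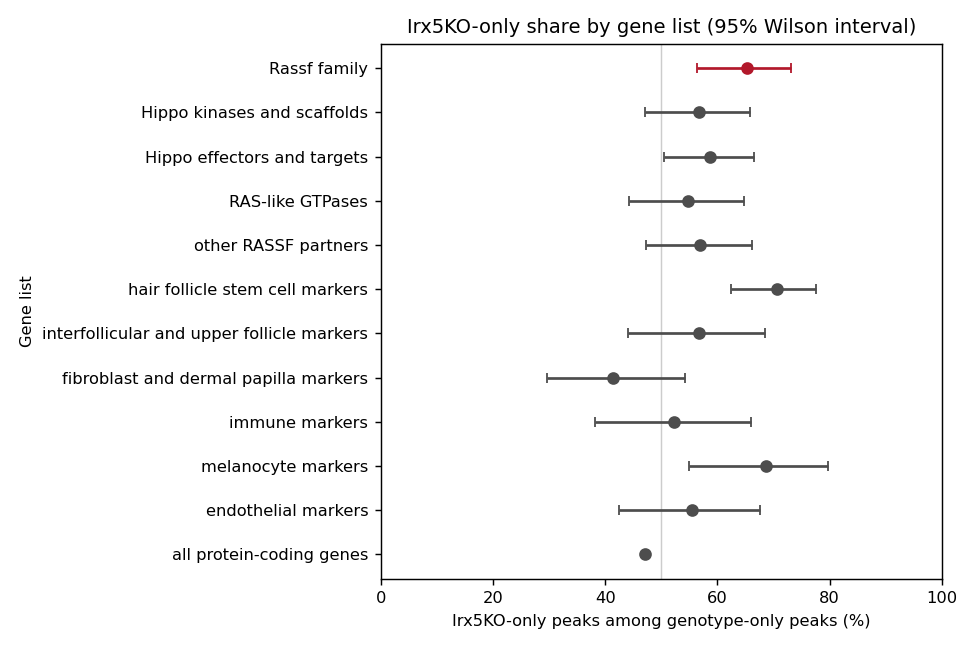
Share of Irx5KO-only peaks among genotype-only peaks, in percent, for the Rassf family, 4 lists of partner genes, 6 lists of cell type markers and all protein-coding genes, with 95% Wilson intervals for counting error only. The Rassf family stands at 65.3%, the partner lists between 54.7% and 58.7% with overlapping intervals, the HFSC markers at 70.6% and all coding genes at 47.1%. Counts of the gene lists are sums over genes, whereas the share of all coding genes counts each peak once.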

How the data were processed

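ATAC-seq peak lists of sorted mouse HFSC were used, 1 list for each genotype. Both samples of a genotype name the same deposited list, per the labels. Bowtie2, Genrich 0.6, cutadapt 2.9, ChIPseeker 1.24.0, deepTools 3.4.2 and FastQC are named with mm10 in the submitters' processing notes. Their settings, and whether reads were shifted for the Tn5 cut, were not given in the sources used here. The authors' score, a whole number of at least 50 with no stated scale, was ranked within each deposited list and never compared between lists. The deposited summit offset was used for summit positions. Signal, p and q columns hold 0 throughout and were not used.

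Left out were 1188 Irx5KO and 1733 WT peaks outside the standard chromosomes. Gene spans came from RefSeq GRCm38.p6, without strand. Members, partner lists, markers and motifs were chosen with earlier results of these data known. The rule for named features took all members, their gene-end peaks and the highest-ranked shared and genotype-only peaks. It also took neighbours within 1000 bp of a named peak and partner genes marked at an end by 1 list alone. The partner gene with the largest margin in each direction was taken too. Not every member's highest-ranked shared or genotype-only peak was named. Other peaks and neighbours, Stk3, Stk4, Yap1, Wwtr1 and Hras were chosen after their values were seen, and so were the shares of the marker lists. Tp53bp2 was matched as Trp53bp2. The code was checked on simulated intervals, and shared peaks were equal in number to those of bedtools 2.31.1. Python 3.11.15, numpy 2.4.6, pandas 2.3.3 and matplotlib 3.10.9 were used. Alternatives changed the score threshold, overlap rule, flank, gene-end window, peak width, list length and members. The classes by gene density, the split at the SARAH domain and the comparison of body with flank were added after the data were seen.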

Additional observations from a re-analysis of the deposited data

How the results depend on the processing

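No paired analysis was possible because each deposited list pools both replicates of a genotype; for the same reason no replicate could be left out. The family's Irx5KO-only share kept its direction and stayed within its main interval under all 8 alternatives, and leaving out any 1 member gave 63.9% to 67.3%. All 8 drew on the same lists that the family was chosen from. The width limit and the midpoint rule left the counts at 77 and 41. No genotype-only peak of the family was wider than 720 bp, so the width limit removed none of them. In the upper 50% by score the share rested on 7 Irx5KO-only and 4 WT-only peaks. All 10 members kept more Irx5KO-only peaks under 4 of the 8 alternatives, where between 46.6% and 51.4% of coding genes had more. With flanks of 0, 10 or 100 kb 8 members did, against 30.0%, 40.3% and 49.0% of coding genes. With peaks kept only if in the upper 50% by score, 4 members had more Irx5KO-only peaks, 4 had equal numbers and 2 had fewer, where 21.6% of all coding genes had more. There 92.6% of the Irx5KO and 95.3% of the WT peaks of the family were shared. The shared part of the Irx5KO peaks was 61.7% when at least 50% of a peak had to be covered and 60.9% with flanks of 10 kb. Shared parts of the whole lists under these settings are not given, so nothing about the family is read from these values. A gene-end peak in both lists was found at 4 members in the upper 50% by score, with Rassf6 marked in Irx5KO only and 5 in neither list. Without peaks over 2000 bp it was found at 9 members, and Rassf8, whose Irx5KO gene-end peak is 2010 bp wide, was marked in WT only. The lower-end Irx5KO peak of Rassf9 is also 2010 bp wide. Rassf9 still counted as marked in both lists, by Irx5KO at its upper end and by WT at its lower end. Of 50 values for single members, 38 kept their direction, 7 became 0 and 5 turned round. Those 5 were a difference of -1 at Rassf1 and at Rassf6 in the upper 50% by score, at Rassf3 with flanks of 10 kb, at Rassf4 with flanks of 100 kb and at Rassf10 in the gene body alone. The cause was not tested. The lists give no depth, so a peak in 1 list says nothing on loss or gain in the other genotype.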
